A study of Mus musculus with 67 samples.

Results

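Microglia are the resident immune cells of the brain, and they survey the tissue and respond to signs of infection or damage. Lipopolysaccharide (LPS), a component of the bacterial outer membrane, is sensed through the receptor TLR4 and triggers inflammatory gene expression in these cells. Orai1 forms the pore of the store-operated calcium channel, through which calcium enters a cell after its internal stores have been released.

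RNA was sequenced from microglia of Orai1 knockout (KO) mice taken 24 h after LPS or after vehicle. These libraries numbered 13 of the 67 in the series: 7 from mice given LPS (3 females and 4 males) and 6 from mice given vehicle (3 females and 3 males). They were picked by their library number, genotype, sex and treatment codes, and no measured value entered the choice. KO mice carried floxed Orai1 alleles (Orai1fl/fl) and Cx3CR1-cre/ERT2, a Cre that tamoxifen switches on, expressed from the Cx3cr1 locus, which is active in microglia and other cells of the myeloid line. The 14 libraries of wild-type (WT) mice used for comparison, 8 with LPS at 24 h and 6 with vehicle, came from Orai1fl/fl mice without the Cre. Both genotypes had received tamoxifen. Only the KO mice carried the Cre, so a difference between the genotypes cannot be assigned to Orai1 apart from the Cre. The mice were 10 to 12 weeks old and were injected with LPS at 1 mg/kg or with PBS, 30 to 35 days after tamoxifen, and microglia were purified from whole brain by FACS. Each library was made from 0.97 ng of RNA with a total RNA kit for low input. A further 3 libraries came from KO males 6 h after LPS, and 11 from KO microglia of newborn mice in culture.

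Genes are given as row numbers, because the count table pairs no row with a gene name. The loss of Orai1 and the purity of the sorted cells were therefore not looked up, and no pathway, cytokine list or cell type marker could be read. Fewer cells of a type and less RNA per cell cannot be told apart in these bulk libraries. Row 1 separated the genotypes as labelled: each of the 13 KO libraries had at least 696 counts, whereas the 8 WT libraries with LPS had 7 counts in all and the 6 with vehicle had 1. It does not show whether Orai1 was deleted.

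Depth was alike in both arms. Total counts ran from 5863375 to 7336603 with LPS and from 5888828 to 6828856 with vehicle. The number of rows with a count was 18228 ± 370 with LPS (SD, n = 7) and 18806 ± 811 with vehicle (n = 6), a difference that did not pass an exact two-sided permutation test (p = 0.118, adjusted p = 0.157 over 4 library measures). Some libraries stood apart. On the first principal component of log2 CPM (counts of a row scaled to library size), which held 27.1% of the variance, the LPS libraries lay at 19.1 to 47.4 and the vehicle libraries at -53.9 to -20.9. KO male vehicle replicate 3 gave the value nearest to the LPS arm among vehicle libraries, and KO female LPS replicate 3 the value nearest to the vehicle arm among LPS libraries. KO male LPS replicate 4 held 1052 counts of row 28290, the row chosen in WT mice as female-specific, which is 8.82% of the WT female level. KO male LPS replicate 1 held 97 counts of it. The WT males were not all near 0 either: WT male LPS replicate 4 held 474 counts of it and WT male vehicle replicate 3 held 16. In KO male LPS replicate 4 the summed level of 4 male-specific rows was 72.9% of the WT male level. That level ran from 72.9% to 116% over the KO males of both arms, and from 0.172% to 0.709% in KO females. The counts for LPS at 24 h against vehicle, for the sexes and for the genotypes are therefore also given without KO male vehicle replicate 3 and KO male LPS replicate 4.

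LPS moved a large part of the measured transcriptome of KO microglia at 24 h, in both directions. Of 14027 rows with enough counts, 3434 were called at an adjusted p under 0.05 (24.5% of rows tested; edgeR quasi-likelihood test with sex as a factor, Benjamini-Hochberg adjustment). LPS raised 1892 rows (13.5%) and lowered 1542 (11%). Without the libraries of KO male vehicle replicate 3 and KO male LPS replicate 4, 3618 rows were called. At an unadjusted p under 0.05 there were 4968 rows, where 701 would be reached by chance. Among the calls, 570 raised and 407 lowered rows had an adjusted p under 0.001.

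Most of these changes were modest in size. The median log2 fold change was 0.78 over raised rows, with the central range (5th to 95th percentile) from 0.34 to 2.85, and -0.75 over lowered rows, with the same range from -2.42 to -0.32. Over all rows tested the median was 0.01, and the median absolute log2 fold change was 0.36. More than 2-fold differences were found in 632 raised and 516 lowered rows. The asymmetry grew with size: more than 8-fold differences were found in 88 raised and 36 lowered rows, and more than 16-fold differences in 42 raised and 16 lowered rows. The median standard error of a called row was 0.15 on the log2 scale, and the smallest called change was 0.17.

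Calls became more frequent with expression level, and the median change of the called rows became smaller. Rows were divided by mean level into 4 bins of equal number. In the lowest bin, log2 CPM up to 2.12, LPS raised 4.08% of rows and lowered 5.16%. In the highest bin, log2 CPM of 5.73 and above, it raised 22.9% and lowered 19.3%. The median change of raised rows was 2.18 in the lowest bin and 0.59 in the highest, and that of lowered rows was -1.94 in the lowest and -0.54 in the highest. The precision moved with level too, with a median standard error of 0.55 in the lowest bin and 0.11 in the highest. A row of low level thus needed a larger change to be called, which raises the median of called rows there. Over all rows of a bin, called or not, the median absolute change was 0.56, 0.38, 0.30 and 0.29 from the lowest bin to the highest.

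**Figure D1:**
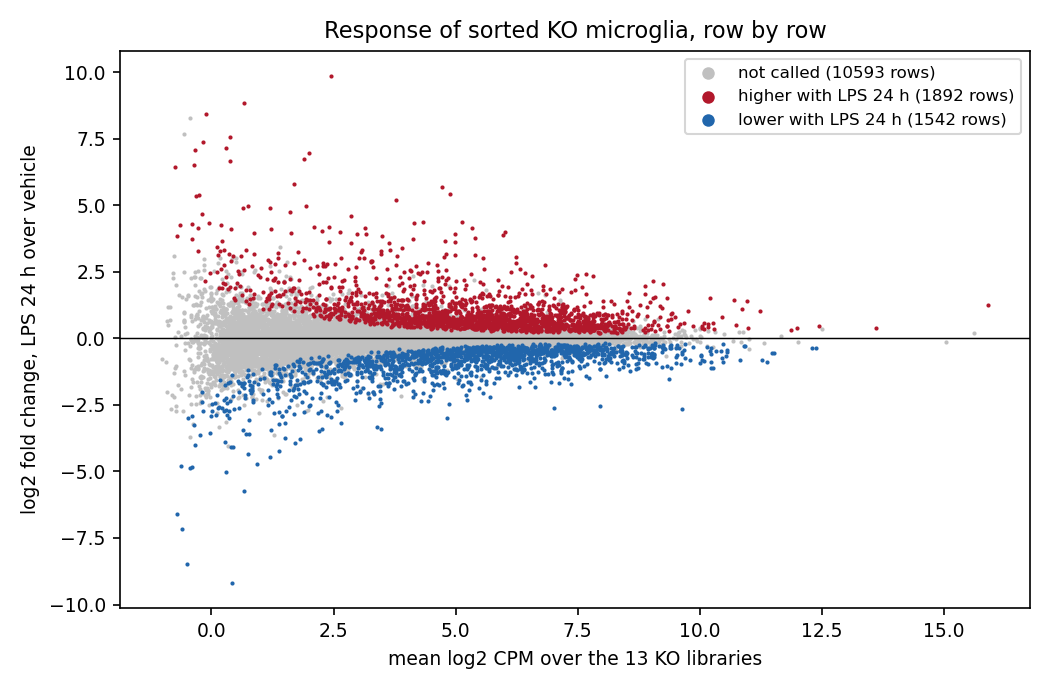
Mean level of each row over the 13 sorted KO libraries (horizontal axis, log2 CPM) against its log2 fold change with LPS at 24 h over vehicle (vertical axis). Each point is 1 of the 14027 rows tested; red points are the 1892 rows called higher, blue points the 1542 called lower and grey points the rows not called, and the largest changes lie among rows of low level.

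The arms separated fully in a smaller set of rows. In 1682 rows (12% of rows tested) the CPM ranges of the 7 LPS and the 6 vehicle libraries did not overlap, with LPS above vehicle in 825 rows (5.88%) and below in 857 (6.11%). These included 818 of the raised rows (43.2%) and 847 of the lowered rows (54.9%). The spread between libraries of the same sex and treatment was a median SD of 0.38 log2 CPM with LPS and 0.35 with vehicle over all rows tested. Over raised rows it was 0.26 in each arm. Over lowered rows it was 0.28 with LPS and 0.23 with vehicle, and 64.5% of lowered rows had the larger SD in the LPS arm, against 54.4% of all rows tested. This comparison of spreads is a description, without a test.

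Row 11765 had the largest rise among rows above the level required for naming, a mean log2 CPM of 1. Its CPM, scaled by TMM (trimmed mean of M values), was 83.4, 54.2 and 13.2 in females with LPS and 81.9, 66.3, 110.9 and 53.9 in males with LPS. In vehicle libraries it was 0.159, 0 and 0 in females and 0.148, 0 and 0 in males. It was thus present in every LPS library and nearly absent from every vehicle library, with no overlap and with KO female LPS replicate 3 lowest. The LPS libraries averaged 66.2 ± 30.7 CPM (SD, n = 7), and 2 counts were found over all 6 vehicle libraries. The ratio of pooled counts per total was 1217, with an exact (Clopper-Pearson) 95% interval of 337 to 10060 that covers counting error alone. The fitted log2 change passed the test (adjusted p = 8.74e-07).

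Row 5524 had the next largest rise. It stood at 24.7, 56.2 and 4.84 CPM in females with LPS and at 20.9, 27.4, 41.9 and 36.9 CPM in males with LPS. The vehicle libraries had 0, 0.417 and 0.148 CPM in females and 0.741, 0 and 0 in males, or 9 counts in all. The arms did not overlap, and the same female, replicate 3, was again the lowest with LPS. The log2 fold change was 6.96 ± 0.74 (SE, adjusted p = 2.46e-05).

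Row 375 fell the most under the same rule. It had 0.491, 0.159 and 0.554 CPM in females with LPS and 0.357, 0, 2.00 and 0 CPM in males with LPS, against 4.62, 18.8 and 3.26 CPM in females with vehicle and 19.0, 9.79 and 14.8 CPM in males with vehicle. All LPS libraries lay below all vehicle libraries, and the vehicle libraries themselves spread widely, with 2 of the 3 females lowest. The log2 fold change was -4.46 ± 0.72 (SE, adjusted p = 0.000516).

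Row 22925 was at 0 in 4 of the 7 LPS libraries, KO female replicate 3 and KO male replicates 1, 2 and 3, and at 1.64, 1.59 and 1.75 CPM in the other three. In vehicle libraries it had 10.2, 12.0 and 10.1 CPM in females and 24.7, 17.8 and 6.10 CPM in males. No LPS library came near the lowest vehicle library. The log2 fold change was -4.24 ± 0.83 (SE, adjusted p = 0.00217).

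**Figure D2:**
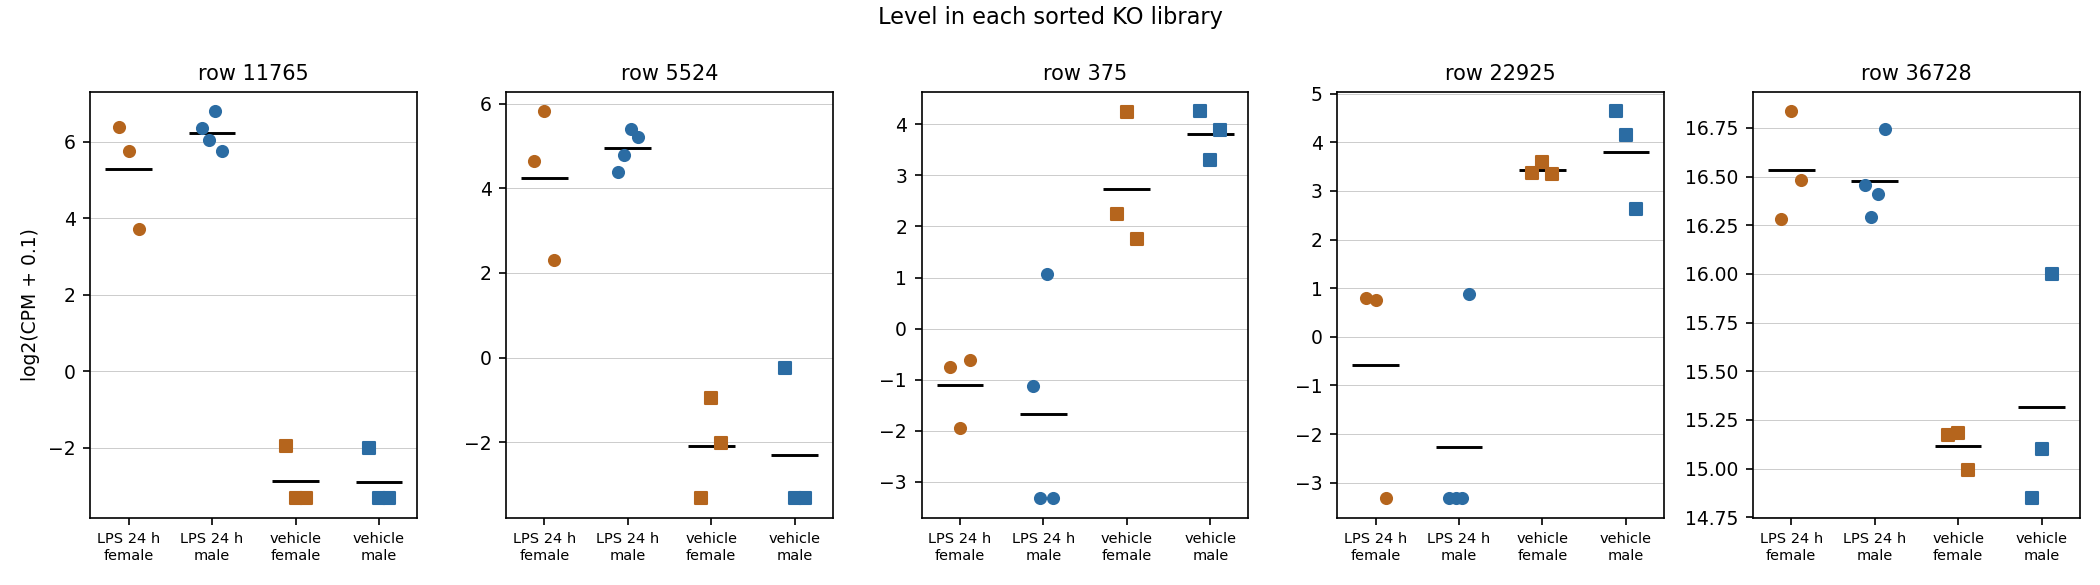
Level of 5 rows in each sorted KO library, as log2(CPM + 0.1) on the vertical axis of each panel, with females in brown and males in blue, circles for LPS at 24 h and squares for vehicle, and a line at each group's mean. Rows 11765, 5524 and 36728 were higher in every LPS library than in any vehicle library, and rows 375 and 22925 were lower.

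A single row carried much of the RNA gained. Row 36728, named after its values were seen, had the largest summed gain. It took 7.80% to 10.9% of all counts with LPS, with a median of 8.60%, and 3.06% to 6.38% with vehicle, with a median of 3.59%. The arms did not overlap, and the highest vehicle library was KO male vehicle replicate 3. The row averaged 93590 ± 14390 CPM with LPS (SD, n = 7) and 39440 ± 13050 CPM with vehicle (n = 6), a log2 fold change of 1.27 ± 0.18 (SE, adjusted p = 0.000171). Of the CPM gained over all raised rows, this row made up 35.8%, and 20 rows made up 50%. The loss was spread more widely, with 103 of the lowered rows making up 50% of it and 2.11% in the largest single row. Of the 91 tested rows with a mean of at least 1000 CPM in either arm, LPS raised 27 (29.7%) and lowered 38 (41.8%).

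The 10 highest rows of a library took a larger share of its counts after LPS, 21.6% ± 1.60 with LPS (SD, n = 7) and 16.8% ± 1.85 with vehicle (n = 6; exact two-sided permutation test, p = 0.00117, adjusted p = 0.00466 over 4 library measures). Row 36728 was one of them, and the other 9 rows together took 12.7% with LPS and 12.8% with vehicle. The 100 highest rows took 33.8% with LPS and 30.5% with vehicle (n = 7 and 6; exact p = 0.00583, adjusted p = 0.0117). With row 36728 taken out of that sum, the other 99 took 24.8% with LPS and 26.6% with vehicle. The shares of the other 9 and the other 99 rows are of all counts, those of row 36728 included. That row took a mean of 8.94% with LPS and 3.98% with vehicle, which lowers the remaining shares more in the LPS arm. No direction is therefore read from these remainders.

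Row 1, the mark of the KO genotype, was itself lower after LPS. It had 170.6, 178.1 and 188.1 CPM in females with LPS and 155.0, 188.0, 168.3 and 121.7 CPM in males with LPS, against 234.5, 215.6 and 227.5 CPM in females with vehicle and 243.4, 237.9 and 188.4 CPM in males with vehicle. The ranges did not overlap, but the highest LPS value and the lowest vehicle value were almost equal. The log2 fold change was -0.40 ± 0.10 (SE, adjusted p = 0.0101), and it did not pass in the fit of all 33 sorted libraries (adjusted p = 0.166).

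The libraries fall into 2 runs of library numbers, of which the first holds 4 LPS and 3 vehicle libraries and the second 3 of each. Fitted alone, the first run gave 2334 calls among 15086 rows (15.5%), 1213 higher (8.04%) and 1121 lower (7.43%). The second gave 937 calls among 14950 rows (6.27%), 490 higher (3.28%) and 447 lower (2.99%). Of the raised rows, 1884 of the 1885 with a fit in both runs kept their direction in each, and 374 were called in both. Of the lowered rows, 1538 of 1539 kept their direction, and 352 were called in both. Both runs enter the call of these rows, so the agreement and the medians over them are a description. The median change of raised rows was 0.80 in the first run and 0.70 in the second, and that of lowered rows was -0.86 in the first and -0.70 in the second.

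Both sexes changed in the same direction. Fitted within sex, LPS changed 1780 rows in KO males (12.7% of 14027), 967 higher (6.89%) and 813 lower (5.8%). In KO females it changed 1748 rows (12.5%), 1025 higher (7.31%) and 723 lower (5.15%). Of the 1892 raised rows, 1891 had a positive change in each sex, and all 1542 lowered rows had a negative one. The sexes enter the call of these rows, so that agreement is a description. The median change over raised rows was 0.73 in males and 0.80 in females, and over lowered rows -0.74 in males and -0.76 in females. Of the raised rows, 646 were called in each sex alone, 278 in males and not females, 314 in females and not males, and 654 in neither. Of the lowered rows, 502 were called in each sex alone, 261 in males and not females, 191 in females and not males, and 588 in neither.

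The difference between the sexes was tested directly. No row passed (0 called, 0% of 14027 rows; edgeR), 730 rows had an unadjusted p under 0.05 where 701 would be reached by chance, and the lowest adjusted p was 0.101. DESeq2 called 8 rows and limma-voom 0. Without KO male vehicle replicate 3 and KO male LPS replicate 4, edgeR again called 0, with 811 of 14452 rows at an unadjusted p under 0.05. The median difference, males minus females, was -0.05 over raised and 0.02 over lowered rows. The median standard error of the difference over called rows was 0.31. Counts were simulated with differences planted only in rows with an average log2 CPM of at least 1. The same test found 5 of 100 such rows with a 2-fold difference in response and 46 of 100 with a 4-fold one. Most sex differences of 2-fold in a single row would thus not be detected with these libraries.

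KO and WT mice were compared in 1 fit of 27 libraries. In that fit LPS changed 3830 of 15053 rows in KO mice (25.4%), 1995 higher (13.3%) and 1835 lower (12.2%). In WT mice it changed 4245 rows (28.2%), 2241 higher (14.9%) and 2004 lower (13.3%). The lists shared 1610 raised rows, which is 80.7% of the KO list and 71.8% of the WT list. They shared 1379 lowered rows, 75.1% of the KO list and 68.8% of the WT list. No row called in KO mice alone in the 13 libraries was called in the opposite direction in WT mice: of the 1892 raised rows, 1872 were positive in WT mice and 1538 were called, and of the 1542 lowered rows, 1517 were negative and 1220 were called.

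The response itself did not differ between genotypes by the direct test. No row passed (0 called, 0% of 15053 rows; edgeR), 531 rows had an unadjusted p under 0.05 where 753 would be reached by chance, and the lowest adjusted p was 0.16. DESeq2 called 8 rows and limma-voom 0, and without KO male vehicle replicate 3 and KO male LPS replicate 4 edgeR called 2. Over rows raised in KO mice by the same fit, the median change was 0.77 in KO mice and 0.69 in WT mice, and over rows raised in WT mice it was 0.66 in KO mice and 0.76 in WT mice. Each list thus had the larger median in the genotype that selected it. Over lowered rows the medians were -0.74 in KO mice and -0.64 in WT mice for the KO list, and -0.63 in KO mice and -0.76 in WT mice for the WT list. The median standard error of the difference was 0.22 over called rows. A simulated 4-fold difference in response, planted in rows of the same levels, was found in 80 of 100 rows and a 2-fold one in 32 of 100.

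The rows that led the KO response show how the genotypes compared. Row 11765 averaged 87.6 ± 62.2 CPM in WT mice with LPS (SD, n = 8), and the 6 vehicle libraries of WT mice had 2 counts together. Row 5524 averaged 46.7 ± 43.0 CPM in WT mice with LPS, and 3 counts were found over all its WT vehicle libraries. Both rows thus spread widely in WT mice, over 6.14 to 164.2 CPM for row 11765 and 3.65 to 106.4 CPM for row 5524, and these ranges contained all 7 KO values of each row. Row 36728 rose by 1.54 ± 0.16 in WT mice (SE, adjusted p = 2.05e-07), and the KO minus WT difference was -0.28 ± 0.23 (adjusted p = 1). Row 375 changed by -3.77 ± 0.74 in WT mice (adjusted p = 0.000416).

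Row 22925 had the largest gap between genotypes among these rows. With LPS it ranged from 0 to 1.75 CPM in KO mice and from 3.66 to 9.17 CPM in WT mice, whereas with vehicle it ranged from 6.10 to 24.7 CPM in KO mice and from 8.18 to 24.6 CPM in WT mice. The LPS ranges of the genotypes did not overlap and the vehicle ranges did. In WT mice its change of -1.24 ± 0.50 did not pass (adjusted p = 0.0696). The KO minus WT difference of -3.03 ± 0.81 did not pass either (edgeR, unadjusted p = 0.00103 and adjusted p = 1 over 15053 rows), and the row was chosen for its change in KO mice.

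**Figure D3:**
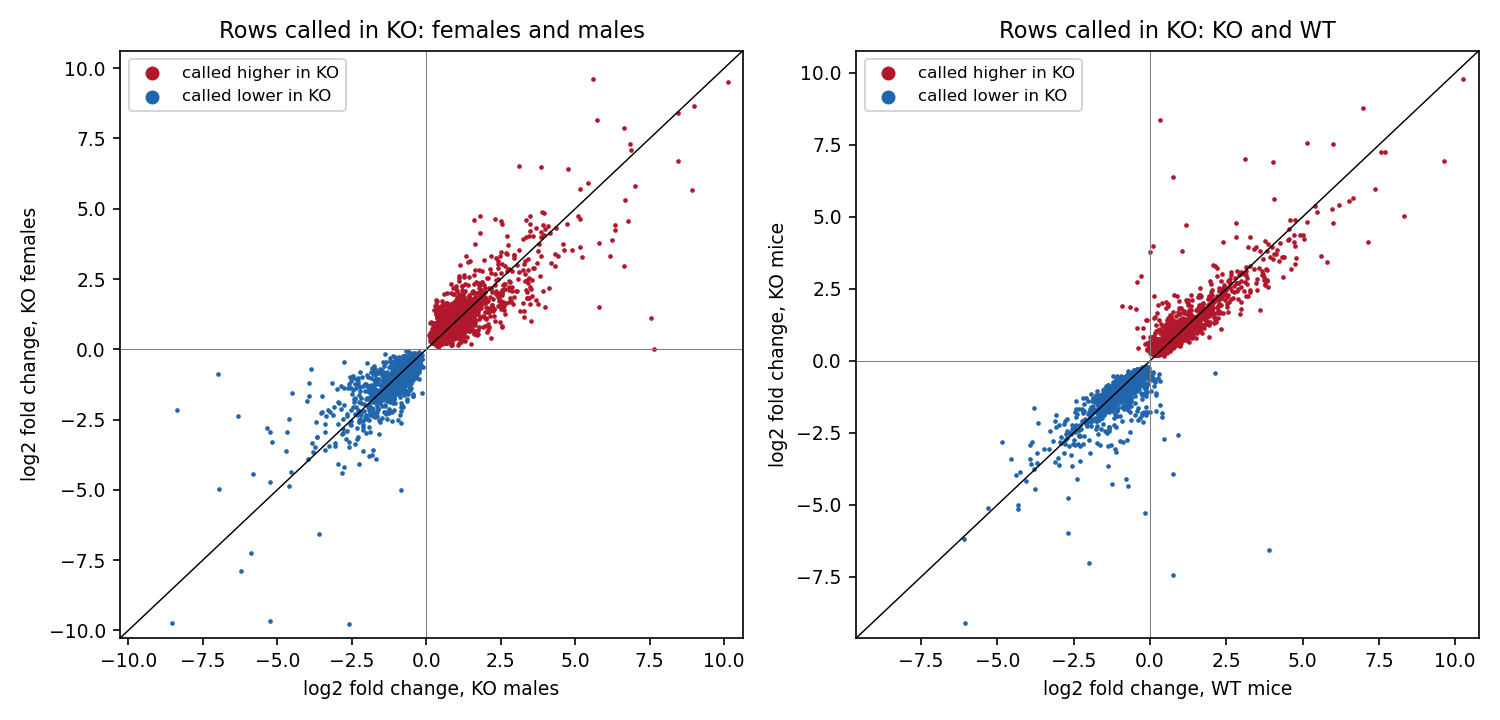
Log2 fold changes with LPS at 24 h over vehicle for the 3434 rows called in KO mice, as KO females against KO males (left panel) and as KO mice against WT mice in the fit of 27 libraries (right panel). Red points were called higher and blue points lower in KO mice, the diagonal marks equal change, and 1872 of the 1892 red and 1517 of the 1542 blue points had the same direction in WT mice.

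The WT response was also read in each KO library, since the WT lists rest on the difference between WT libraries. The lists were called in the fit of both genotypes, so the KO libraries entered its row filter, scaling and dispersion. Rows raised in WT mice took 32.98% to 36.98% of the counts of KO libraries with LPS, with a median of 35.6%, and 20.6% to 26.4% with vehicle, with a median of 21.2%. Rows lowered in WT mice took 18.6% to 20.9% of counts with LPS, with a median of 19.1%, and 25.6% to 32.0% with vehicle, with a median of 31.2%. Every KO library with LPS lay on the LPS side of every vehicle library in both lists. KO male vehicle replicate 3 was the vehicle library closest to the LPS arm, at 26.4% and 25.6%.

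Per row, the median shift of the WT-raised rows from the KO vehicle mean was 0.51 to 0.73 log2 CPM in KO libraries with LPS and -0.12 to 0.12 with vehicle. For the WT-lowered rows it was -0.75 to -0.50 with LPS and -0.15 to 0.04 with vehicle. The gap between the arms was wider than the spread within either arm. These values describe the libraries, and no test was made of them.

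**Figure D4:**
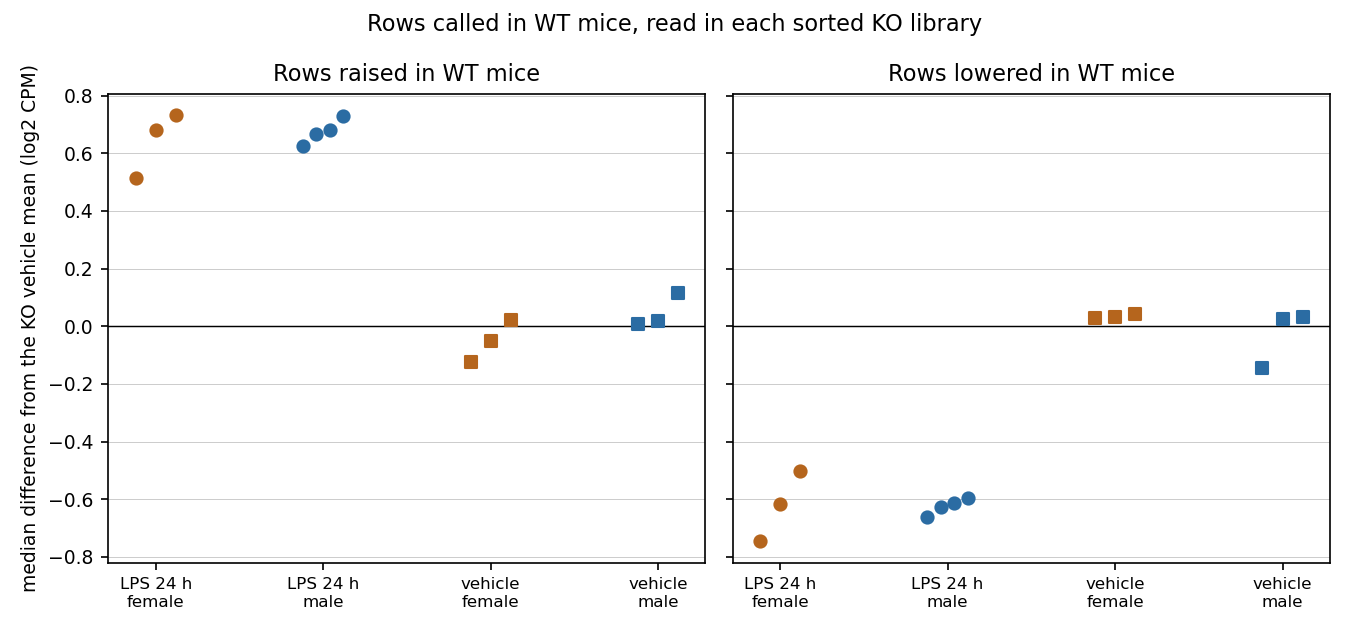
Median difference from the KO vehicle mean, in log2 CPM, over the 2241 rows raised (left panel) and the 2004 rows lowered (right panel) by LPS in WT mice, for each sorted KO library. Females are brown and males blue, circles are LPS at 24 h and squares vehicle, and points within a group are placed in order of value; LPS libraries lay at 0.51 to 0.73 and -0.75 to -0.50, apart from all vehicle libraries.

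The 24 h state was then set against an earlier time in males, 4 KO libraries at 24 h and 3 at 6 h, within a fit of the 16 sorted KO libraries. Of 14357 rows, 854 differed (5.95%), 528 higher at 24 h (3.68%) and 326 lower at 24 h (2.27%). Library numbers of the times do not overlap, so time and library series cannot be told apart. The 6 h libraries also differed among themselves: the median shift of the WT-raised rows was 0.16 in KO male 6 h replicate 1 and 0.55 and 0.56 in the other two. Without that library 1287 rows were called, without 6 h replicate 2 there were 395, without 6 h replicate 3 there were 319, and without 24 h replicate 1 there were 534. Without 24 h replicate 2, 3 or 4 the totals were 573, 592 and 590, of which 199, 210 and 210 were lower at 24 h. In simulated counts, again without planted rows of low level, this comparison found 17 of 100 rows with a 2-fold difference and 81 of 100 with a 4-fold one.

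Some of the rows that responded at 24 h differed between the times. Of the 1892 raised rows, 301 (15.9%) were higher and 16 (0.846%) lower at 24 h than at 6 h, and of the 1542 lowered rows 168 (10.9%) were lower and 0 higher. Against the same vehicle libraries, and in the same fit, the median change of the raised rows in males was 0.71 at 24 h and 0.45 at 6 h, and that of the lowered rows was -0.76 at 24 h and -0.48 at 6 h. At 6 h against vehicle 683 rows were called in males (4.76%), 430 higher (3%) and 253 lower (1.76%). Library numbers of the 6 h and vehicle libraries do not overlap. LPS and library series therefore cannot be told apart in any value at 6 h against vehicle. These values also include 6 h replicate 1, where the median shift of the WT-raised rows was 0.16. Of the rows raised at 24 h, 328 were called higher and 5 lower at 6 h, and of the lowered rows, 104 were called lower and 4 higher. Both times share their vehicle libraries. The raised and lowered lists were called with the 24 h male libraries among others, whereas the 6 h libraries took no part. Since that choice favours larger changes at 24 h, the medians and counts over these lists are a description. Of the rows higher at 24 h than at 6 h, 227 were not called for LPS at 24 h against vehicle, and of the rows lower at 24 h, 137 were not called and 5 were not tested there.

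Among called rows above the level required for naming, row 19120 was the most reduced at 24 h relative to 6 h. In males it had 0.889, 1.16 and 1.07 CPM with vehicle, 2.14, 397 and 431 CPM at 6 h, and 3.21, 3.49, 4.62 and 0.699 CPM at 24 h. It was high in 2 of the 3 libraries at 6 h, while 6 h replicate 1 lay within the range at 24 h. The log2 change of 24 h against 6 h was -6.50 ± 1.18 (SE, adjusted p = 0.00582), and it missed the threshold with limma-voom (adjusted p = 0.0526). Row 696 followed the same pattern, with 2.82, 0.664 and 1.22 CPM with vehicle, 4.86, 113 and 134 CPM at 6 h, and 5.71, 1.97, 4.62 and 1.22 CPM at 24 h. Again 6 h replicate 1 did not share the high level. Its log2 change was -4.62 ± 0.91 (SE, adjusted p = 0.00895).

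In the other direction, row 5524 reached 20.9 to 41.9 CPM in males at 24 h and 0 to 3.07 CPM at 6 h, and this difference of 4.15 ± 0.96 on the log2 scale passed (SE, adjusted p = 0.021). Row 11765 had 53.9 to 110.9 CPM at 24 h and 0 to 25.7 CPM at 6 h, and its difference of 2.21 ± 0.89 did not pass (adjusted p = 0.17). Row 36728 differed by 0.79 ± 0.24 and did not pass (adjusted p = 0.0643).

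The calls of the 2 rows that led the higher side of this comparison did not hold in most alternatives that left out a library. Row 28290, the female-specific row, had 17.3, 0, 0 and 184 CPM in males at 24 h and 0, 0 and 0.261 CPM at 6 h, and its difference (adjusted p = 0.0461) was not called in 5 of the 7 fits that left out 1 male library of either time, among them the fits without 24 h replicate 4 and without each 6 h library. Row 6045 had 3.75, 4.85, 1.85 and 21.7 CPM at 24 h and 0, 0.134 and 0 CPM at 6 h, or 1 count over the 3 libraries. Its male vehicle libraries had 3.11, 0.664 and 44.8 CPM, the highest of all in KO male vehicle replicate 3. Its call (adjusted p = 0.0433) was lost in 6 of the 7 such fits, all except the fit without 24 h replicate 3. Neither row was called without a filter or with limma-voom.

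**Figure D5:**
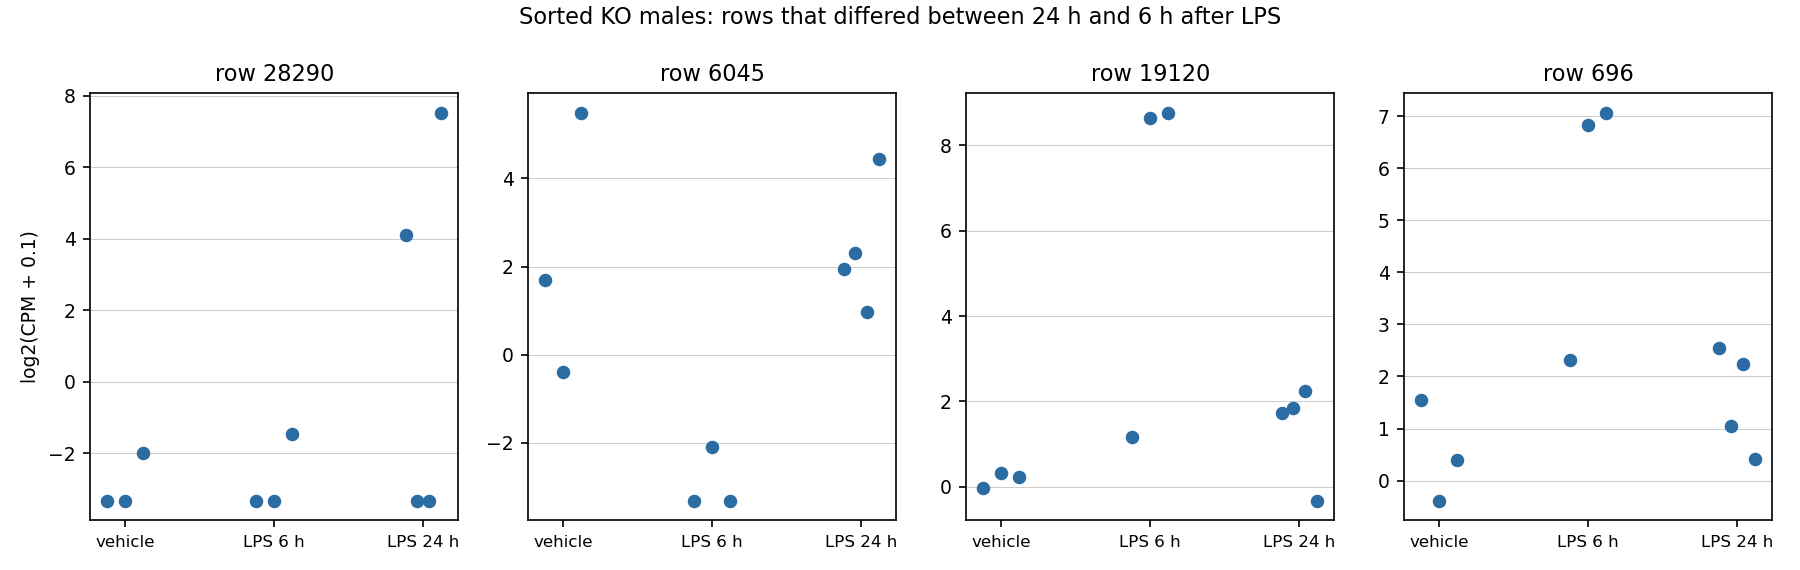
Level of the 4 rows that led the comparison of 24 h with 6 h, as log2(CPM + 0.1) on the vertical axis, in each sorted KO male library with vehicle, at 6 h and at 24 h after LPS; each panel has its own scale. Rows 19120 and 696 were high in 2 of the 3 libraries at 6 h, and row 28290 was high in 2 of the 4 libraries at 24 h.

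Cultured KO microglia offered a second setting, LPS at 10 ng/ml for 6 h in 5 libraries against vehicle in 6, from another table. The tables appeared to list the same rows in the same order, and rows were matched by position on that ground. In culture LPS changed 3489 of 15048 rows (23.2%), 1896 higher (12.6%) and 1593 lower (10.6%). Of the rows raised in sorted KO cells, 1802 were tested in culture, and 568 of them (31.5%) were higher there and 123 (6.83%) lower. The 568 rows made up 30.0% of the culture list. Of the lowered rows, 1387 were tested, and 348 (25.1%, or 21.8% of the culture list) were lower and 108 (7.79%) higher. The median change in culture was 0.18 over the raised rows and -0.18 over the lowered rows. Rows 11765 and 5524, matched by position, rose in culture by 6.44 ± 0.36 (SE, adjusted p = 4.98e-07) and 4.98 ± 0.57 (adjusted p = 7.26e-05). Age, tissue, preparation, dose and time differ between the settings, so these values stand side by side without a test of their difference.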

How the data were processed

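The deposited values are whole-number counts, not normalized by the authors. The submitters' processing notes name the build GRCm38 and list STAR 2.7.10a, Salmon 1.10.1 and Trim Galore 0.6.7, with no role or order. Labels set the groups; deposited metadata describe the sorted libraries as cultured cells, and the labels were followed. The labels call the libraries separate samples without naming each mouse, so p-values measure the spread between these samples.

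Rows were filtered with filterByExpr (minimum count 10, minimum total 15), which kept 99.75% of the counts, scaled by TMM and tested with edgeR 4.0.16 (R 4.3.3; glmQLFit, robust, and glmQLFTest). The fit of KO mice had sex and treatment as terms; the other sorted fits had 1 mean for each group, and the culture fit had sex and treatment. Calls used a Benjamini-Hochberg adjusted p under 0.05 over all rows tested. The standard error was the fold change divided by the root of its F statistic. Printed CPM were scaled by TMM over the 33 sorted libraries; log2 CPM used a prior count of 2. DESeq2 1.42.0 and limma 3.58.1 (voom with quality weights) were alternatives, beside other scaling, no filter, other samples, a replicate block and leaving out each library. Intervals and floors cover counting error alone, since no molecular identifiers were used.

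The rule for naming rows took at most 2 that rose and 2 that fell by size of change. Candidates were called and had mean log2 CPM no lower than 1 over the libraries of the fit, females included. For LPS at 24 h against vehicle they also moved 1 way in both sexes and in both runs of library numbers. The comparison of 24 h with 6 h held males only, so no condition on sex applied there. Rows 1, 28290 and 36728 are also used for other reasons given beside them. The libraries, lists and tests were chosen with earlier results of these data known.

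The fit was tested on simulated counts of the 13 KO libraries. It recovered 51 of 100 rows with a 2-fold and 88 of 100 with a 4-fold change, with 1 false call among 13679 rows. In every simulation the changed rows had an average log2 CPM of at least 1, 100 for each fold size. Counts were drawn from the dispersion trend, with no library set apart. The recovery therefore does not cover rows of lower level or libraries that stand apart. All 15 pairs of replicates differed beyond counting error (lowest chi-square 11.9 per degree of freedom). Row order of the sorted and culture tables was compared by the Spearman correlation of mean log2 CPM across 26168 rows, 0.853 as deposited and 0.327 to 0.347 when moved by 1 to 3 rows. Genes that share reads could not be looked up without names.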

Additional observations from a re-analysis of the deposited data

Results flagged for a closer look

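Among 34 groups of values examined for a library far from the others, 9 held one, where chance gives about 1 in 20 groups. The groups share libraries, and 5 of the 9 concern KO male vehicle replicate 3. It lay at -20.9 on the first principal component, where the nearest other vehicle library was at -48.4. It held 65410 CPM of row 36728, against 37160 CPM in the next vehicle library. Rows raised in WT mice took 26.4% of its counts, against 21.9% in the next, rows lowered in WT mice took 25.6%, against 29.9% in the next, and the median shift of the WT-lowered rows was -0.15, against 0.03 in the next.

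KO male LPS replicate 4 was far from the other males with LPS in row 28290, at 184 CPM with the next at 17.3 CPM, and in row 6045, at 21.7 CPM with the next at 4.85 CPM. KO female LPS replicate 3 lay at 19.1 on the first principal component, with the next LPS library at 38.3. KO male LPS replicate 3 held 2.00 CPM of row 375, with the next LPS library at 0.554 CPM. What sets these libraries apart was not tested.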

How the results depend on the processing

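The named rows kept their direction in every setting run. For LPS at 24 h against vehicle, with DESeq2 4024 rows were called, with voom 3935, with RLE scaling 3455 (51.0% of them higher, against 55.1%), without a filter 2860 and in the fit of all 33 sorted libraries 3593. The runs of library numbers, which hold fewer samples, gave 1213 raised rows in the first, and 937 calls (490 higher and 447 lower) in the second. In the second run rows 11765 (adjusted p = 0.0507), 22925 (0.128) and 1 (0.0994) missed the threshold. Leaving out each library gave 2905 to 3668 calls, 1513 to 2007 higher and 1326 to 1661 lower.

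The sex difference gave 0 calls, 4 without a filter and 8 with DESeq2, and 0 to 1 when each library was left out (1 without KO female LPS replicate 3). The KO minus WT difference gave 8 with DESeq2, 0 to 2 when each library was left out (1 without KO male vehicle replicate 2 or replicate 3, 2 without KO male LPS replicate 4), and 2 without both KO male vehicle replicate 3 and KO male LPS replicate 4, a setting chosen after the data were seen.

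The 24 h against 6 h comparison was the least stable: DESeq2 called 1522 rows (919 higher, 603 lower), voom 1862 (1073 and 789), and leaving out each library gave 319 to 1287 (196 to 792 higher and 123 to 495 lower). Shared replicate numbers were checked for pairing: correlations of deviations ran from -0.06 to 0.24 over 15 pairs. All 3 WT female pairs were over 0.1 and no other pair was; all 6 female pairs, KO and WT, correlated best with their own number and none of the 9 male pairs did, a hint from the data and not the design. Since not every pair passed 0.1, pairing was not assumed. With a replicate block LPS at 24 h against vehicle gave 2873 calls, the sex and genotype differences 0 each, and 24 h against 6 h 305 (212 higher and 93 lower), with all 4 rows named there missing the threshold. The cause of these differences was not tested. Depth limits rows of low level, where standard errors were largest.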
